A study of Mus musculus with 2 samples.

Results

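The Nrf2 antioxidant response genes were examined as 10 genes, found by symbol, of the 24532 genes in the deposited table: Nfe2l2, Keap1, Nqo1, Hmox1, Txnrd1, Srxn1, Gclm, Abcc1, Prdx1 and Sqstm1. Their mRNA levels in mouse E14 embryonic stem cells (ESCs) were set against those in E14-Sox2 TA/WT cells, with 1 RNA-seq library of polyadenylated RNA for each. E14 is an established ESC line, here with wild-type Sox2 and grown in serum with LIF. E14-Sox2 TA/WT cells (Sox2 T258A in the labels) are E14 cells cloned from single cells after CRISPR/Cas9 editing, in which one Sox2 allele encodes alanine in place of threonine 258, a site of O-GlcNAc, and the other allele is wild type. They were normally kept in serum, LIF and 2i (inhibitors of Mek and Gsk3), and 2i was withdrawn before use. These cells are also called the edited clone below. Genotype, clone and the history with 2i cannot be told apart, and no difference below has a replicate check or a p-value.

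Nrf2, encoded by Nfe2l2, is a transcription factor that controls defence against oxidants and electrophiles. In unstressed cells, Keap1 binds Nrf2 and brings it to a Cul3 ubiquitin ligase, so that Nrf2 is degraded. Oxidants modify cysteines of Keap1, Nrf2 then accumulates, pairs with a small Maf protein and binds antioxidant response elements near genes for glutathione synthesis, thioredoxin recycling, quinone and haem metabolism and export. Nrf2 is therefore controlled largely as a protein, which RNA-seq does not measure.

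The stretches before the transcription starts are shown for the genes of this set that held a match to the core of an antioxidant response element, because that sequence defines the pathway. The core was searched as TGACNNNGC and, added after those results were seen, as TGAGNNNGC, on both strands, in RefSeq windows (GRCm38.p6) from 250 bases before to 50 bases after each start. The RefSeq promoter table held 8 of the 10 genes, and Hmox1 and Abcc1 were not among them. A match to the first form stood in 5 of the 8 genes, where 14% of all genes with a window held one, and the second form stood in 2 of them, against 19.8% of all genes. Either form was found in 30.8% of all genes with a window. The 250 bases before the start are printed 5′ to 3′ on the strand of the gene, with matches in capitals. RefSeq's span of Gclm begins 70 bases before the start used in the promoter table (122245557), so only the 180 bases outside that span are printed. The Txnrd1 stretch lies inside the span of the gene, before a start downstream of the first.
Nfe2l2, chr2:75704664-75704913, minus strand: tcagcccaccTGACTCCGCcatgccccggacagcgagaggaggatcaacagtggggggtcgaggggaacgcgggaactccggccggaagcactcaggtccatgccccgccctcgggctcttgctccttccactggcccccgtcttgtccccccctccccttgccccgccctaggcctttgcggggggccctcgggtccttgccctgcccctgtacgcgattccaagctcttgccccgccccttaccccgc
Txnrd1 (second of its listed starts), chr10:82858956-82859205, plus strand: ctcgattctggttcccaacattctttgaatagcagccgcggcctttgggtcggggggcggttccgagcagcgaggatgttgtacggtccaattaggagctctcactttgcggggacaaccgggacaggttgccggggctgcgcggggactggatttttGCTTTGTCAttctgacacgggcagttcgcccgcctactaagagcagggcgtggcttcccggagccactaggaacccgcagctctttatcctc
Srxn1, chr2:152105274-152105523, plus strand: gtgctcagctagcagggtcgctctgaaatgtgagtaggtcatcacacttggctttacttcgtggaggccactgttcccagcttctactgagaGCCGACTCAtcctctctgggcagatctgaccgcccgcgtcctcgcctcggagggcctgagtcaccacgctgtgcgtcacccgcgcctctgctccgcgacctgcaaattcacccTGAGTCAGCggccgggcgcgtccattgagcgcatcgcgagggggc
Gclm, chr3:122245307-122245486, plus strand: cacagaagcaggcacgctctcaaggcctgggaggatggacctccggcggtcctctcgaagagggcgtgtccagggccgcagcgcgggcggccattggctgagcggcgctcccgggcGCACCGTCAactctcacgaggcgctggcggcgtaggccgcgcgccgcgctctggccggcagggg
Prdx1, chr4:116685349-116685598, plus strand: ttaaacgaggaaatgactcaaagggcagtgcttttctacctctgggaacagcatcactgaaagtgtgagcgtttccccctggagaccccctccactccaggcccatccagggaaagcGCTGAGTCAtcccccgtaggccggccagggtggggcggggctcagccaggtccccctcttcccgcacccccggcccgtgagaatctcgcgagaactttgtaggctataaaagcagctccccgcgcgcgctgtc
In Srxn1, both capitalised matches are of the TGAG form, 158 and 45 bases before the start, and its match to the TGAC form (GCTAGGTCA on the strand of the gene) begins at base 29 of the transcribed part. The match in Prdx1, GCTGAGTCA, begins 133 bases before the start and reads TGAC on the other strand, as do those of Gclm (134 bases) and Txnrd1 (92 bases). Prdx1 also has a match to the TGAG form, GCGTTCTCA on the strand of the gene, at base 16 of the transcribed part. The windows of Keap1, Nqo1 and Sqstm1 and the other 2 windows of Txnrd1 held neither form. These matches are letters in a window of fixed size, and whether Nrf2 bound them was not measured.

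The depth was 60263536 reads for E14 and 44609228 for the edited clone. The edited gene, Sox2, was at a TPM of 372.5 and 274.2, and the gene table cannot show the edit itself. All 7 ESC markers examined (Pou5f1, Sox2, Nanog, Esrrb, Zfp42, Dppa5a and Tdgf1) were above a TPM of 10 in both libraries. In the edited clone 5 of them were lower, where 42.7% of all genes past the filter used below were lower. Nanog was more than 2-fold lower (TPM 526.9 and 251.3, log2 ratio -1.07). Esrrb was the highest of the 7 (log2 ratio 0.10, but -0.04 with FPKM). Among 6 markers of feeder fibroblasts, Dcn and Postn had no reads, which allows a level of up to 0.0498 CPM (reads scaled to the library total) for E14 and 0.0673 for the edited clone, and the summed TPM of the 6 was 43.1 and 16.6. The lower sum is Thy1 (TPM 40.1 and 11.4, log2 ratio -1.81), whereas Col3a1 (15 and 151 reads, log2 ratio 4.0) and Col1a2 (43 and 109 reads, 1.93) were higher, and the interval of Col1a1 (497 and 370 reads, 0.15) included 0. The 4 primitive endoderm markers were all lower. Only Gata4 of these passed the filter, so the 42.7% is not a background for the 4, and no share over genes under the filter was computed. The 4 markers summed to a TPM of 36.6 and 14.5, with Gata4 at 15 and 3.80 (log2 ratio -1.98). Gata6, Sox17 and Dab2 were under a TPM of 10 in both libraries, and Dab2 had a log2 ratio of only -0.27. The part of cell state or of these cell types in the results was not tested. In such bulk libraries, fewer expressing cells and less RNA per cell cannot be told apart. The median log2 ratio of all genes past the filter used below was 0.08 with TPM and -0.06 with FPKM or CPM, and small ratios are to be read against that shift.

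None of the 10 genes differed more than 2-fold between the cell lines. All 10 passed the study's filter, which keeps genes that reach a TPM of 10 in either library, and 8.24% of the 9094 genes it keeps differed more than 2-fold, 4.17% higher and 4.07% lower in E14-Sox2 TA/WT cells. With FPKM in place of TPM, 278 genes were higher and 496 lower, against 379 and 370 with TPM, and none of the 10 passed 2-fold on either scale. Neither pair of counts equals the counts that the study reported for these cells, so its own set of genes was not reproduced. On the TPM scale 7 of the 10 genes were lower in E14-Sox2 TA/WT cells, where 42.7% of all genes past the filter were lower. The 95% counting interval of the ratio lay wholly below 1 for 6 genes and wholly above 1 for 3, where 35.3% and 50.2% of all genes did so, and it included 1 for Txnrd1. These intervals come from read counts and cover counting error only. The median log2 TPM ratio of the 10 genes was -0.25, beside the 0.08 of all genes past the filter.

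**Figure D1:**
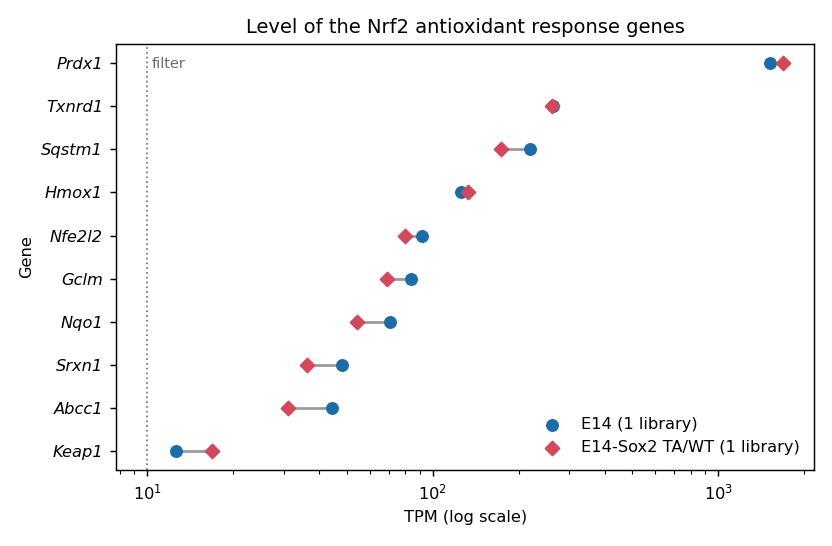
TPM of each of the 10 genes on a log axis, with circles for the E14 library, diamonds for the E14-Sox2 TA/WT library and a dotted line at the filter of TPM 10. The genes span 12.6 (Keap1) to 1518 (Prdx1) in E14 and keep the same order in both libraries, and no pair of symbols lies 2-fold apart.

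The levels spanned a wide range, and the order of the 10 genes by TPM, a scale per length, was the same in both libraries. From the highest, it was Prdx1, Txnrd1, Sqstm1, Hmox1, Nfe2l2, Gclm, Nqo1, Srxn1, Abcc1 and Keap1. The summed TPM of the set was 2476 in E14 and 2536 in the edited clone, of which Prdx1 alone made up 61.3% and 66.3%. The sum was therefore mostly Prdx1, and it was higher although 7 of the 10 genes were lower.

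The transcription factor and its inhibitor lay on opposite sides of no change. Nfe2l2 (chromosome 2, 75675513 to 75704663 in GRCm38.p6, the assembly that mm10 is built on) had a TPM of 91.9 (7107 reads) in E14 and 79.7 (4127 reads) in the edited clone. It was 1.15-fold lower, a log2 ratio of -0.21 (95% counting interval -0.26 to -0.15), and 26.7% of genes past the filter had a lower ratio. Keap1 (chromosome 9, 21229730 to 21239332), the adaptor through which Nrf2 is degraded, had a TPM of 12.6 (1429 reads) and 16.8 (1336 reads). It was 1.33-fold higher, with a log2 ratio of 0.41 (0.30 to 0.52), the highest of the 10 genes, and 76.4% of genes had a lower ratio. Within a library the TPM of Nfe2l2 was 7.28 times that of Keap1 in E14 and 4.75 times in the edited clone. That quotient does not depend on how the libraries are scaled against each other, and it was lower in E14-Sox2 TA/WT cells by a log2 change of -0.61 (-0.74 to -0.49). This quotient and those below were chosen after the values had been seen. None of them was corrected for a trend with GC content and length, and their intervals do not cover such a trend. For single genes, removing that trend moved Gclm from -0.29 to -0.66 and Prdx1 from 0.15 to 0.02.

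Gclm encodes the modifier subunit of glutamate-cysteine ligase, the first enzyme of glutathione synthesis, and lies on chromosome 3 (122245487 to 122267215). Its TPM was 83.9 (5478 reads) in E14 and 68.8 (3010 reads) in the edited clone, 1.22-fold lower (log2 ratio -0.29, -0.35 to -0.22). Gclc, which encodes the catalytic subunit of the same enzyme and is not one of the 10, went the other way, from a TPM of 43.1 to 61.4 (log2 ratio 0.51, 0.45 to 0.57). The quotient of Gclm to Gclc was 1.95 in E14 and 1.12 in the edited clone, a log2 change of -0.80 (-0.89 to -0.71), so the messages of the modifier and the catalytic subunit were closer to equal in the edited clone. Of 50-base stretches of Gclm transcripts, 3.92% also occur in other genes, Ppia most often, and the handling of such reads is not given in the sources used here.

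Of the genes that recycle thioredoxin and peroxiredoxins, Txnrd1 and Prdx1 differed little and Srxn1 was lower. Txnrd1 (chromosome 10, 82833951 to 82897724), which encodes the cytosolic reductase of thioredoxin, had a TPM of 263 (28178 reads) and 262 (18751 reads), with a log2 ratio of -0.01 (-0.03 to 0.02). Prdx1 (chromosome 4, 116685599 to 116700000), a peroxiredoxin that reduces peroxides, had a TPM of 1518 (67728 reads) and 1681 (50273 reads). Its log2 ratio of 0.15 (0.13 to 0.16) was 0.00 with FPKM. Srxn1 (chromosome 2, 152105524 to 152111376) encodes sulfiredoxin, which restores peroxiredoxins that peroxide has overoxidised, and its TPM was 47.9 (4242 reads) and 36.2 (2148 reads). It was 1.32-fold lower (log2 ratio -0.40, -0.48 to -0.33), and 16.0% of genes past the filter had a lower ratio. The quotient of Srxn1 to Prdx1 went from 0.0316 to 0.0215, a log2 change of -0.55 (-0.63 to -0.48). Prdx1 shares 8.29% of its 50-base stretches with other genes, the largest such share of the 10 genes, which makes its count less certain. Txnrd1 overlaps Eid3, but Eid3 had only 77 and 90 reads.

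Of the classical reporters of Nrf2 activity, Nqo1 was lower in the edited clone and Hmox1 was close to no change. Nqo1 (chromosome 8, 107388225 to 107403205), a reductase that converts quinones to hydroquinones, had a TPM of 70.5 (3449 reads) in E14 and 54.3 (1780 reads) in the edited clone. It was 1.30-fold lower (log2 ratio -0.38, -0.46 to -0.29). Hmox1 (chromosome 8, 75093618 to 75100593), the inducible enzyme that breaks down haem, had a TPM of 125.5 (6232 reads) and 133.3 (4433 reads), a log2 ratio of 0.09 (0.03 to 0.14) that changed sign to -0.06 with FPKM. Both genes lie on chromosome 8, whose 548 genes past the filter had a median log2 ratio of 0.28, the highest of the chromosomes. Relative to that median, Nqo1 was at -0.66 and Hmox1 at -0.20, and the part of the chromosome in their values was not tested.

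The remaining genes, which serve export and autophagy, were both lower. Abcc1 (chromosome 16, 14361453 to 14474878) encodes the transporter Mrp1, which exports glutathione and its conjugates. Its TPM was 44.2 (8260 reads) in E14 and 31.1 (3892 reads) in the edited clone, 1.42-fold lower, the lowest ratio of the 10 genes (log2 ratio -0.51, -0.56 to -0.45). Of all genes past the filter, 12.5% had a lower ratio. The rank of Abcc1 holds for TPM, whereas centred by chromosome Nqo1 (-0.66) was slightly below it (-0.64). Sqstm1 (chromosome 11, 50200152 to 50210820) encodes p62, an autophagy receptor that can also sequester Keap1, and had a TPM of 218.7 (13873 reads) and 172.5 (7329 reads). It was 1.27-fold lower (log2 ratio -0.34, -0.38 to -0.30). Abcc4, a related exporter outside the set, was higher (TPM 40.8 and 72.5), and the quotient of Abcc1 to Abcc4 went from 1.08 to 0.429. In E14 the messages of the 2 exporters were nearly equal, and in E14-Sox2 TA/WT cells Abcc4 was the more abundant. The log2 ratio of Abcc4 was 0.83, or 0.53 with the GC and length trend removed. Abcc5, another relative, differed little (TPM 37.8 and 37.2, log2 ratio -0.03). Abcc2 and Abcc3 were under the filter and are given under other observations.

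**Figure D2:**
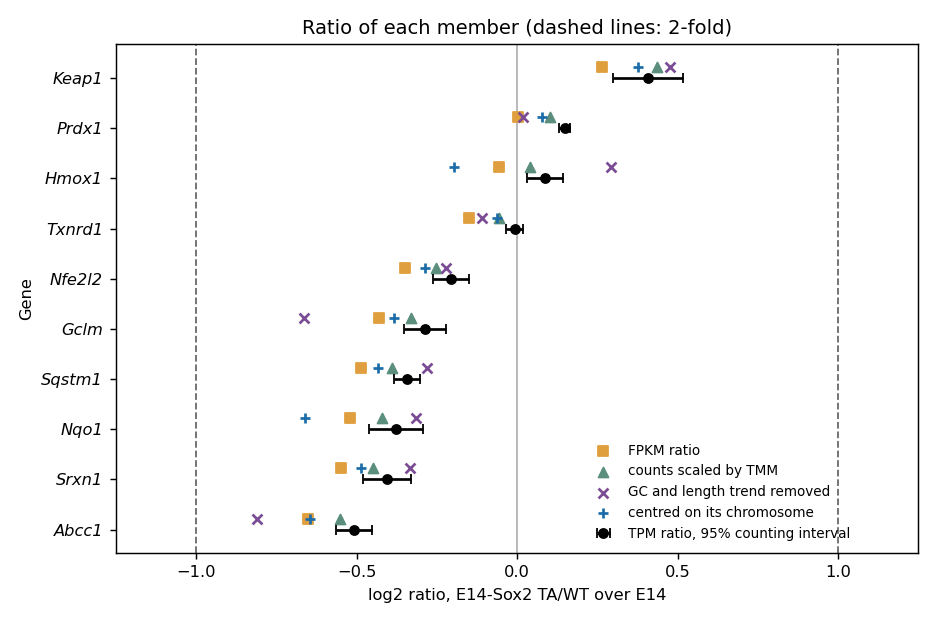
log2 ratio of E14-Sox2 TA/WT over E14 for each gene, with black circles and bars for the TPM ratio and its 95% counting interval and coloured symbols for other scalings. Every symbol lies between the dashed 2-fold lines, Abcc1 reaches -0.81 with a GC and length trend removed, and Hmox1 has symbols on both sides of 0.

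**Figure D3:**
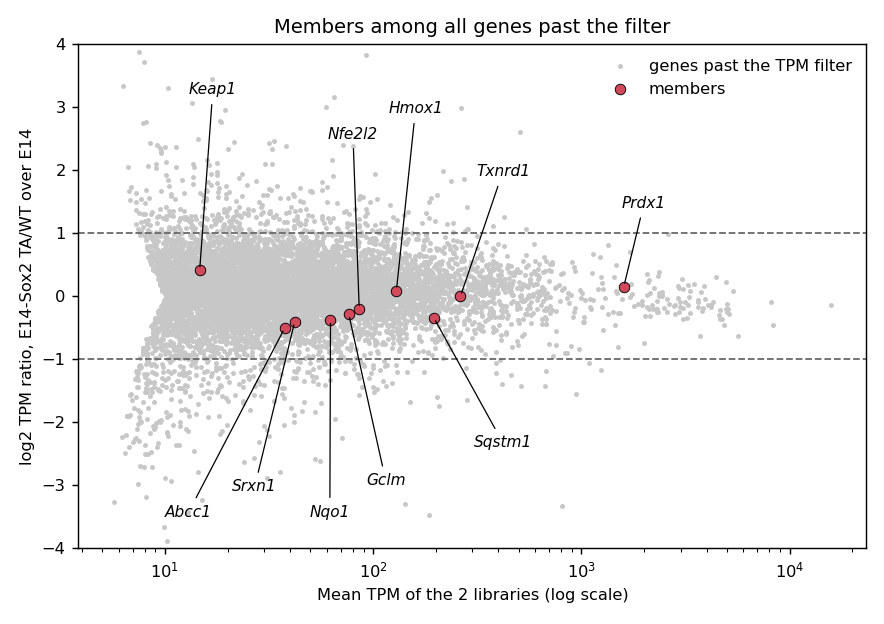
log2 TPM ratio (vertical) against mean TPM (horizontal, log axis) for the genes past the filter in grey and the 10 genes in red, with 22 genes outside the plotted range. The 10 genes lie inside the band between the dashed 2-fold lines, from -0.51 (Abcc1) to 0.41 (Keap1).

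None of the regulators around Nrf2 passed 2-fold. Of 10 regulator genes listed, 6 passed the filter and 1 of these was lower, where 42.7% of all genes past the filter were lower, and the median log2 ratio was 0.37, beside 0.08 over all genes. The 5 that were higher were Bach1, a repressor that competes with Nrf2 for the same elements (TPM 16.1 and 22.3, log2 ratio 0.47, 0.40 to 0.55), Mafg (0.43), Cul3 (0.40, but -0.01 with a trend on GC content and length removed), Rbx1 (0.34) and Maff (0.27). Cul3 and Rbx1 are the scaffold and the ring subunit of the ligase that Keap1 serves, and Mafg and Maff are small Maf proteins. The exception was Nfe2l1, a relative of Nrf2 that controls proteasome genes, at a TPM of 161 and 107 (log2 ratio -0.58, -0.62 to -0.55). Keap1, Bach1, Cul3 and Rbx1, which restrain Nrf2, were all higher on the TPM scale, as were Mafg and Maff, and Nfe2l2 was lower. With the trend on GC content and length removed, Bach1 went to 0.15 and Rbx1 to 0.11. In that setting Keap1 was at 0.48, Maff at 0.43 and Mafg at 0.33. The quotient of Nfe2l2 to Bach1 was 5.71 in E14 and 3.57 in the edited clone.

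Of 11 glutathione genes, 8 passed the filter, 2 were more than 2-fold lower and none higher, with a median of -0.46. To be set beside this and each list below, 4.07% of all genes past the filter were more than 2-fold lower and 4.17% higher. Gpx4, the peroxidase for lipid hydroperoxides, went from a TPM of 1732 to 765 (log2 ratio -1.18, -1.21 to -1.15), and Gstm1, a glutathione transferase, from 77.6 to 38.1 (-1.03, -1.13 to -0.93). The interval of Gstm1 reached past the threshold on both sides, and both genes came under 2-fold with the trend on GC content and length removed (-0.93 and -0.80). Gpx1, the cytosolic glutathione peroxidase, was just inside the threshold at -0.97 and past it in 4 settings, FPKM among them (-1.11). Of the synthesis genes, Gclc was higher (0.51) and Gss, the second enzyme of the pathway, was lower (TPM 31.3 and 22.6, log2 ratio -0.47, -0.59 to -0.36). Gsr, which regenerates reduced glutathione, had the highest ratio (log2 ratio 0.69, 0.64 to 0.75), but it lies on chromosome 8 and, centred by chromosome, was below Gclc (0.41 and 0.48).

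Of 12 genes of the thioredoxin and peroxiredoxin system, 10 passed the filter, 1 was more than 2-fold lower and the median was -0.34. That gene was Txnip, which binds and inhibits thioredoxin (TPM 545 and 234, log2 ratio -1.22), and Prdx2 was the highest (0.48). Prdx2 also lies on chromosome 8 and was at 0.20 when centred by chromosome. Txn1, the substrate of Txnrd1, had a log2 ratio of -0.43, and the quotient of Txnrd1 to Txn1 went from 0.400 to 0.536, a log2 change of 0.42 (0.38 to 0.47). All 6 genes for NADPH supply passed the filter and stayed within 2-fold (median 0.02), from Me1 (-0.56) to Tkt (0.27). The 3 genes for superoxide dismutases and catalase had a median of -0.15, from Sod1 (-0.26) to Sod2 (-0.01).

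All 6 haem and iron genes past the filter had ratios below 1, where 42.7% of all genes past the filter did. Their median was -0.31, although Ftl1 was above 1 (0.15) with the trend removed. Only Blvrb, a biliverdin and flavin reductase that acts after haem breakdown, passed 2-fold, with a TPM of 127.5 and 42.8 (log2 ratio -1.57, -1.69 to -1.46), and Hmox2, the constitutive haem oxygenase, was nearest to no change (-0.08). The quotient of Hmox1 to Blvrb went from 0.984 to 3.11. Among 9 quinone, carbonyl and xenobiotic genes past the filter (median -0.00), Ephx1, an epoxide hydrolase, was more than 2-fold lower (TPM 50.5 and 19.6, log2 ratio -1.37) and the exporter Abcg2 more than 2-fold higher (46.5 and 103.4, log2 ratio 1.15, or 0.65 with the trend removed). Nqo2, the closest relative of Nqo1, had a log2 ratio of -0.27, and the quotient of Nqo1 to Nqo2 was 4.15 and 3.84, a change of -0.11 whose interval (-0.24 to 0.02) included 0. The 9 autophagy receptors and Atg8 proteins all stayed within 2-fold (median -0.29), from Gabarapl2 (-0.72) to Tax1bp1 (0.34), except that Gabarapl2, also on chromosome 8, reached -1.002 and passed the threshold when centred by chromosome.

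Genes of the Atf4 arm of the stress response, which shares some targets with Nrf2, lay far below the 10 genes. All 6 were more than 2-fold lower, with a median of -2.00. Ddit3, which encodes Chop, went from a TPM of 95.2 to 15.5 (log2 ratio -2.62, -2.80 to -2.44), and Trib3, a pseudokinase, from 117.5 to 24.6 (-2.26). Chac1, an enzyme that degrades glutathione, had a log2 ratio of -2.58. Ddit4 (-1.74), Atf4 itself (-1.42) and Atf3 (-1.31) were nearer the threshold. This list was written with low Atf4 targets in these libraries already known, so its count is not independent evidence of a direction. Over the 9 lists, 63 of 76 genes passed the filter, of which 11 were more than 2-fold lower and 1 higher, and without the Atf4 arm 5 of 57 were lower and 1 higher, where 4.07% and 4.17% of all genes past the filter were.

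**Figure D4:**
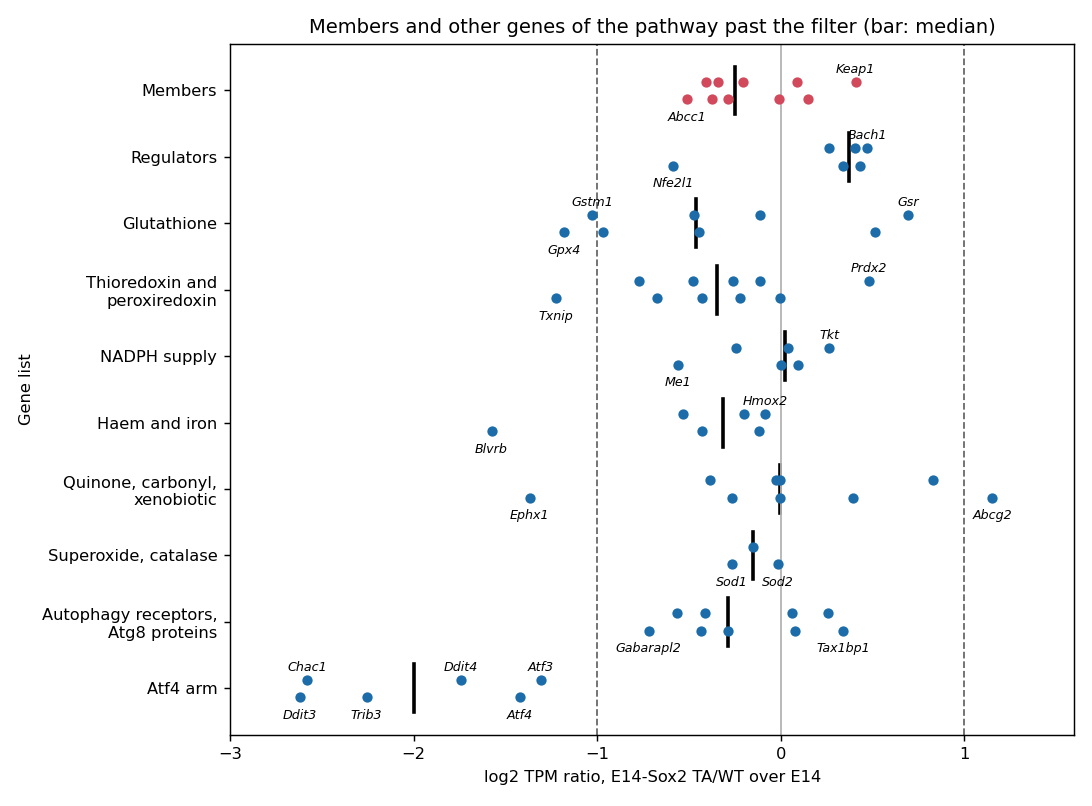
log2 TPM ratio of E14-Sox2 TA/WT over E14 for the 10 genes (red) and for genes of 9 lists past the filter (blue), with black bars at list medians and dashed lines at 2-fold. The 10 genes have a median of -0.25 and none beyond 2-fold, 5 of 6 regulators are to the right of 0 (median 0.37), and all 6 genes of the Atf4 arm are left of the lower line.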

How the data were processed

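RNA-seq of 1 E14 and 1 E14-Sox2 TA/WT library was analysed, grouped by the sample titles. The submitters' processing notes name bcl2fastq 2.20.0, Trimmomatic, HISAT2 2.1.0 and StringTie 2.1.3b and the mm10 build, without roles. The handling of strand and of reads that map to several genes is not given in the sources used here. Per the file headers, the deposited values are read counts (whole numbers, not normalized), FPKM (per length and depth) and TPM (per length, summing to 993247 and 994155), all from the authors. All columns were used.

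Ratios of TPM, with no pseudocount, were read against the study's rule, a TPM of 10 or more in either library and a fold of 2. With 1 library per group there was no test. Clopper-Pearson 95% intervals of the 2 read counts were placed on the TPM scale, and intervals of quotients between genes used the Poisson error of 4 counts. Both cover counting error only, not variation between cultures, and may be too narrow even for that, since PCR copies are not independent molecules. For a gene without reads, 3 reads was the floor. Ratios and intervals were tested on simulated counts that held Poisson error alone, so that test does not cover PCR copies or variation between cultures. Counts were also scaled by TMM (edgeR 4.0.16) and median of ratios (DESeq2 1.42.0). SciPy 1.17.1 was used.

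Other settings were TPM filters of 1, 20 and above 0 in both libraries, thresholds of 1.5-fold and 3-fold, pseudocounts of 0.1 and 1, FPKM, counts scaled to the total (CPM), centring on the median, and a counting interval wholly past 2-fold. A correction for trends with GC content and then length (20 bins each, longest GENCODE M21 transcript, 97.4% of genes matched) and centring on the chromosome were added after the data were seen. The 10 genes and all lists were chosen with earlier results of these data known. Named genes were the 10, genes of the lists past 2-fold, the highest and lowest of each list past the filter, and Sox2. Others of the lists were named after their values were seen.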

Additional observations from a re-analysis of the deposited data

How the results depend on the processing

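None of the 10 genes passed the threshold under any alternative tried, also at 1.5-fold with TPM. Nfe2l2, Nqo1, Txnrd1, Srxn1, Gclm, Abcc1 and Sqstm1 were lower and Keap1 and Prdx1 higher in every setting, Prdx1 by as little as 0.00. Hmox1 changed sign in 3 settings and ran from -0.20 (centred on its chromosome) to 0.29 (GC and length trend removed). Abcc1 ran from -0.81 to -0.49, Gclm from -0.66 to -0.28, Nqo1 from -0.66 to -0.31 and Keap1 from 0.26 to 0.48. The median of the 10 genes (-0.25) moved to -0.39 with CPM and with FPKM, to -0.33 when centred on the median of all genes and to -0.34 when centred by chromosome. The median of all genes past the filter moved in the same direction, from 0.08 to -0.06 with CPM and with FPKM and to 0.0 with either centring. Of the genes named as more than 2-fold different, Gpx4 (-0.93), Gstm1 (-0.80) and Abcg2 (0.65) fell under the threshold with the GC and length trend removed. Tax1bp1, which was within 2-fold at 0.34, went to -0.00 in that setting. Gpx1 passed the threshold with FPKM and CPM (-1.11), TMM (-1.01) and centring on the median (-1.05), and Gabarapl2 when centred by chromosome (-1.002). Counts of genes higher and lower (379 and 370) became 886 and 1366 with the filter at 1, 1339 and 2019 with any TPM above 0 in both libraries, 1291 and 955 at 1.5-fold, 104 and 136 at 3-fold, and 271 and 212 with the filter at 20, since these settings admit more or fewer genes. No paired analysis was possible because each group has 1 library, and variation between cultures was not measured.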

Other observations

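The 13 listed genes under a TPM of 10 in both libraries were left out of the counts above, and each is named here. For 6 of them the counting interval lay wholly below no change in the edited clone. No share over all genes under the filter was computed to set beside this. With the filter at 10, 379 genes were more than 2-fold higher and 370 lower, and with the filter at 1 these were 886 and 1366. The genes added at low levels were therefore more often lower than higher. Slc7a11, which imports cystine for glutathione synthesis, had 71 reads in E14 and 12 in the edited clone (log2 TPM ratio -2.09, 95% counting interval -3.11 to -1.20). Gpx2, a glutathione peroxidase of epithelia, had 261 and 21 reads (-3.06, -3.77 to -2.41), and Aldh3a1, an aldehyde dehydrogenase, had 101 and 6 (-3.75, -5.23 to -2.58). The exporter Abcc3 had 199 and 35 reads (-1.93, -2.49 to -1.41). Nfe2l3, a relative of Nrf2, had 212 and 59 reads (-1.29, -1.73 to -0.87), and the mitochondrial reductase Txnrd2 had 566 and 213 (-0.83, -1.07 to -0.60).

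Others of these genes were higher in the edited clone. Slc40a1, the iron exporter ferroportin, had 162 and 220 reads (log2 TPM ratio 1.02, 0.72 to 1.32), Bach2 had 202 and 244 (0.85, 0.58 to 1.13), Mafk 664 and 578 (0.38, 0.21 to 0.54) and Txnrd3 747 and 567 (0.20, 0.04 to 0.36). The intervals of Mgst1 (190 and 154 reads, -0.05 to 0.58), Nfe2 (51 and 24 reads, -0.94 to 0.55) and Abcc2 (11 and 6 reads, -1.92 to 1.36) included no change, so no difference was detectable for them at this depth.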
